A study of Mus musculus with 2 samples.

Results

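The integrin matrix receptors of the mouse glomerulus were described through 10 genes: the alpha subunit genes Itga1, Itga2, Itga3, Itga5, Itga6, Itga8 and Itgav, the beta subunit genes Itgb1 and Itgb5, and Cd151, which encodes a tetraspanin partner of laminin-binding integrins. They were taken by symbol from the 31058 entries of the feature list, and each of the 10 symbols was found there. The data were 10x 3' single-cell libraries of cells from kidney glomeruli of 2 healthy mice on a C57Bl/6 background. One library was titled female and the other male. Both mice had the same 3 alleles (Pax2.rtTA; TetO.Cre; R26.Confetti), by which doxycycline switches on Cre where the Pax2 promoter is active, and a fluorescent reporter is then kept. Both received doxycycline at 19 days of age and were killed at 30 days, so that neither group was free of the transgenes or of the drug. With 1 library per group no difference between the libraries has a replicate check and none was tested.

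Integrins are receptors made of an alpha and a beta chain that join the extracellular matrix to the actin cytoskeleton, and the alpha chain largely sets which matrix protein is bound. Itga3 and Itga6 pair with beta chains into laminin receptors, Itga1 and Itga2 pair with Itgb1 into collagen receptors, and Itga5, Itga8 and Itgav form receptors for ligands with an RGD motif such as fibronectin, nephronectin and vitronectin. In the glomerulus the podocyte sits on the outer face of the basement membrane, where integrin alpha3 beta1 binds laminin, and loss of Itga3 or Cd151 in mice damages that membrane. Mesangial cells hold the capillary loops together from the inside, parietal cells line Bowman's capsule, and endothelial cells form the capillary wall.

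In UMIs (unique molecular identifiers, 1 per captured transcript), the female-labelled library summed to 67648465 over 5233 barcodes and the male-labelled library to 57841860 over 4974 barcodes. After filtering, 4909 and 4442 cells remained. The libraries shared 10 barcode sequences. Sex-linked transcripts ran against the titles: in counts per 1000000 UMIs (CPM), Xist stood at 0.682 in the female-labelled and 1593 in the male-labelled library, and Ddx3y at 132 in the female-labelled library and at 0 UMIs in the male-labelled one. Both libraries keep their titles here, and every direction between them rests on those titles. Levels are CPM of the summed UMIs of a cell class in a library, with exact 95% Poisson intervals in brackets that cover counting error only. One UMI stands for 1 transcript end whatever the transcript's length, so levels were not divided by length. Classes are said to overlap where the ranges of their values over both libraries do.

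Cell classes were named from marker genes that include no integrin, and integrin genes were left out of the variable genes used for clustering. Podocyte-like cells numbered 3725 in the female-labelled library and 3416 in the male-labelled library. Parietal epithelial-like cells numbered 117 and 80, mesangial-like cells 207 and 161, glomerular endothelial-like cells 112 and 89, arterial endothelial-like cells 66 and 66, and tubule-like cells 69 and 109, in the same order. Smooth muscle or renin-like cells (43 and 67) and immune-like cells (17 and 55) were too few in 1 library for the comparisons between libraries. All 12 podocyte markers were at 50 CPM or more in podocyte-like cells, as were all 8 mesangial markers in mesangial-like cells and 6 of 8 parietal markers in parietal epithelial-like cells. The endothelial classes shared markers. All 8 glomerular endothelial markers reached 50 CPM in both classes, summing to 16681 and 15001 CPM in the glomerular and 5507 and 5730 CPM in the arterial class. Of 9 arterial markers 6 reached it in the arterial and 4 in the glomerular class. Some cells of other classes also carried podocyte transcripts. Podocyte markers held over 5000 CPM in 20 of 69 and 21 of 109 tubule-like cells and in 18 of 117 and 13 of 80 parietal epithelial-like cells, but in 2 of 207 and 0 of 161 mesangial-like cells. The tubule-like class was mostly thick ascending limb-like, with 52 and 68 cells, and Aqp2, a collecting duct gene, was among the leading genes of that cluster.

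The promoters of Itga2, Itga3 and Itgb5, the 3 members called higher in podocyte-like cells in each of 4 comparisons described further on, and of Itga8, the member with the widest gap between mesangial-like cells and the next class, are shown so that the start regions of both patterns can be read side by side. They are RefSeq windows on GRCm38.p6, from 250 bases before to 50 bases after a gene start, written 5' to 3' on the gene's strand. Capitals mark the GC box GGGCGG or its reverse complement CCGCCC. Windows were found for 9 of the 10 members. Itga2 lies at chr13:114932051-114932350 (minus strand), Itga3 at chr11:95076665-95076964 (minus strand), Itgb5 at chr16:33829415-33829714 (plus strand) and Itga8 at chr2:12301895-12302194 (minus strand).
Itga2: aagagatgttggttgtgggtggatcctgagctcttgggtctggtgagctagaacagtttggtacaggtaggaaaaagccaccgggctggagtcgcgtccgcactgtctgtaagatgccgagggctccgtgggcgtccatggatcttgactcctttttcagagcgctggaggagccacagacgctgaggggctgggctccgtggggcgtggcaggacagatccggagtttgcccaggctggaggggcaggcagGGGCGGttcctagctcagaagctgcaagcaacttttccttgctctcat
Itga3: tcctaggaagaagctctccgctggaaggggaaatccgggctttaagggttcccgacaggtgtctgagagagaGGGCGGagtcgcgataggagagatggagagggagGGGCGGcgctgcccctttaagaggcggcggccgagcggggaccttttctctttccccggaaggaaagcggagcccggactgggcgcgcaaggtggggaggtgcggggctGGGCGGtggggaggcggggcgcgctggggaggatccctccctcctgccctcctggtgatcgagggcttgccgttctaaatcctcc
Itgb5: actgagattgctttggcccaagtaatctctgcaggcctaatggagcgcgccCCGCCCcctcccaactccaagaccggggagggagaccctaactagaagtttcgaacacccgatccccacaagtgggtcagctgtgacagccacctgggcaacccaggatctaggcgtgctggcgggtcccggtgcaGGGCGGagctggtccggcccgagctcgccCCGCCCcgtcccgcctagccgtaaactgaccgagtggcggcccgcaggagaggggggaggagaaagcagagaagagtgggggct
Itga8: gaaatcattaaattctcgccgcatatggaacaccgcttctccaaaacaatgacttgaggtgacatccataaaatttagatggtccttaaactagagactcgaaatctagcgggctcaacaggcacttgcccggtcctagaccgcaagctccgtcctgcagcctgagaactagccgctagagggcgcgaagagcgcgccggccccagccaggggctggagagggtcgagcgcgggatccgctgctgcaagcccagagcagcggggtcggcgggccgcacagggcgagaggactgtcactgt
A GC box was in 35.7% of all 32851 promoter windows. The windows of Itga3 and Itgb5 each held 3 of them, that of Itga2 held 1 and that of Itga8 none. Itga3 has a second window, not shown, with 1 GC box and 1 CCAAT box. Of the other members, the window of Itga5 held 2 GC boxes, those of Itgav and Itgb1 held 1 each and that of Itga1 held 0. The 2 windows of Cd151 held 2 and 0. G and C made up 59.3% (Itga2), 66.7% (Itga3), 65.7% (Itgb5) and 59% (Itga8) of the windows shown, beside a median of 52.7% over all windows. The CCAAT box (CCAAT or ATTGG; 37.4% of all windows), the TATA box (TATAAA or TTTATA; 13.6%) and the CArG box (1.63%), each searched on both strands, were in none of the 4 windows shown. These are letter matches and show no binding.

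The whole genes lie on GRCm38, by the GENCODE M21 annotation, at chr13:114953096-115101964 (Itga1), chr13:114833081-114932100 (Itga2), chr11:95044474-95076801 (Itga3), chr15:103344286-103366763 (Itga5), chr2:71745616-71858416 (Itga6), chr2:12106632-12301922 (Itga8), chr2:83724397-83806916 (Itgav), chr8:128685654-128733200 (Itgb1), chr16:33829665-33949338 (Itgb5) and chr7:141467392-141471473 (Cd151). Counts were summed over whole genes, and exons, introns and UTRs were not separated. Itga1 overlaps Pelo, Gm49395 and Gm10734, Itga6 overlaps Gm17250 and Itga8 overlaps E030013I19Rik in the feature list. The sources used here do not say which strand was counted, so reads of those pairs cannot be told apart where they overlap.

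Podocyte-like cells carried almost as much Itgb5 as Itgb1, while in each of the other 7 classes Itgb5 was under Itgb1 by more. Itgb5, whose protein pairs with Itgav into a vitronectin receptor, stood in podocyte-like cells at 980.0 CPM (971 to 989) in the female-labelled library and 965 CPM (955 to 975) in the male-labelled library. The next class was smooth muscle or renin-like, with 194 and 178 CPM. It was followed among others by mesangial-like cells with 75.1 and 76.1 CPM and glomerular endothelial-like cells with 72.6 and 46.6 CPM. Podocyte-like cells were thus above each other class in both libraries, while smooth muscle or renin-like, tubule-like and parietal epithelial-like cells overlapped. Without the cells that carried podocyte markers these 3 classes stood apart, at 170.0 and 161 CPM in the smooth muscle or renin-like, 114 and 130.1 CPM in the parietal epithelial-like and 63.2 and 72.0 CPM in the tubule-like class. After each cell was thinned to 3000 UMIs, Itgb5 was seen in 94.0% and 93.8% of podocyte-like cells and in 17.9% and 24.2% of mesangial-like cells. Without thinning it was seen in 3724 of 3725 and 3414 of 3416 podocyte-like cells (median depths 11154 and 10028 UMIs) and in 48.3% and 44.7% of mesangial-like cells (8118 and 7315 UMIs). The 12 podocyte markers summed to 27764 and 28958 CPM in podocyte-like cells, against 629 and 489 CPM in mesangial-like cells, and the part of podocyte transcripts in the mesangial Itgb5 level was not tested.

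Itgb1, the beta chain shared by the collagen, laminin and fibronectin receptors, was highest in mesangial-like cells at 2285 and 2390 CPM. Glomerular endothelial-like cells followed at 1531 and 1548 CPM, then the smooth muscle or renin-like class at 1439 and 1629 CPM, and these 2 classes overlapped. Podocyte-like cells stood at 1047 CPM (1038 to 1056) and 1048 CPM (1038 to 1058), the ratio closest to 1 between libraries among the members in this class. Parietal epithelial-like cells stood at 909 and 998 CPM, arterial endothelial-like cells at 923 and 963 CPM, tubule-like cells at 363 and 339 CPM and immune-like cells at 310 and 334 CPM. Tubule-like cells therefore lay below each other non-immune class in both libraries.

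Among the laminin receptor genes, podocyte-like cells carried Itga3 and almost no Itga6. Itga3 stood at 300.5 CPM (296 to 305) and 293 CPM (287 to 298) in podocyte-like cells. Mesangial-like cells stood at 148 and 103 CPM, glomerular endothelial-like cells at 140.0 and 110.6 CPM and parietal epithelial-like cells at 97.0 and 115 CPM, and these 3 classes overlapped. Itga6, the other laminin-binding alpha chain, was highest in glomerular endothelial-like cells at 424 CPM (391 to 460) and 397 CPM (351 to 447). Tubule-like cells followed at 167 and 139 CPM, arterial endothelial-like cells at 105 and 123 CPM and parietal epithelial-like cells at 87.9 and 61.4 CPM. In podocyte-like cells Itga6 stood at 1.27 and 1.15 CPM, from 61 and 44 UMIs. After thinning, it was seen in 0.403% and 0.205% of podocyte-like cells and in 75.9% and 61.8% of glomerular endothelial-like cells, against 1.40% and 1.17% and 91.1% and 88.8% without thinning (glomerular endothelial-like median depths 7932 and 6417 UMIs).

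Cd151, whose protein binds integrin alpha3 beta1 on the cell surface, was spread more evenly. It stood at 449 CPM (443 to 455) and 408 CPM (401 to 414) in podocyte-like cells. Mesangial-like cells stood at 255 and 214 CPM, glomerular endothelial-like cells at 243 and 207 CPM, parietal epithelial-like cells at 219 and 212 CPM and arterial endothelial-like cells at 193 and 198 CPM. Podocyte-like cells were above these classes in both libraries, by at most 2.05-fold over mesangial-like, glomerular endothelial-like and parietal epithelial-like cells. Tubule-like cells stood at 113 and 82.8 CPM.

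The collagen receptor genes were divided between classes. Itga1 stood at 509 and 614 CPM in mesangial-like cells and at 495 and 578 CPM in parietal epithelial-like cells, and these 2 classes overlapped. The smooth muscle or renin-like class stood at 281 and 335 CPM, tubule-like cells at 147 and 185 CPM, arterial endothelial-like cells at 143 and 144 CPM and glomerular endothelial-like cells at 131 and 84.4 CPM. Podocyte-like cells were lowest among the classes of non-immune cells, at 25.5 and 28.5 CPM. Itga2 ran the other way. It stood at 51.7 CPM (49.7 to 53.8) and 51.9 CPM (49.7 to 54.3) in podocyte-like cells, at 5.20 and 6.22 CPM in parietal epithelial-like cells and at 1.5 and 0.692 CPM in mesangial-like cells, the last from 3 UMIs and 1 UMI. In tubule-like cells it stood at 12.97 and 7.28 CPM, and no UMI of it was left there without the cells that carried podocyte markers. In parietal epithelial-like cells 1.59 and 2.89 CPM were left.

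Among the RGD receptor genes, Itga8 was highest in mesangial-like cells. Its protein pairs with Itgb1 and binds nephronectin. It stood at 1720.3 CPM (1663 to 1779) and 1806 CPM (1737 to 1876) in mesangial-like cells, at 133 and 158 CPM in the smooth muscle or renin-like class, and at 0.376 and 0.341 CPM in podocyte-like cells. It was seen in 0.188% and 0.117% of thinned podocyte-like cells, against 99.5% and 98.8% of thinned mesangial-like cells. Without thinning it was seen in 17 of 3725 and 12 of 3416 podocyte-like cells and in 207 of 207 and 161 of 161 mesangial-like cells. Glomerular endothelial-like cells stood at 216 and 2.91 CPM, but 293 of the 294 UMIs in the female-labelled library came from 5 of its 112 cells. Each of the 5 held 2 or more UMIs of the mesangial gene Pdgfrb. Without these 5 cells 65 of 179 Itga1, 25 of 63 Itgav and 1563 of 2088 Itgb1 UMIs were left in that library. The sums of this class there thus leaned on the 5 cells for other members too.

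Itgav, which pairs with several beta chains, was highest in podocyte-like cells at 273 and 293 CPM. It stood at 208 and 214 CPM in parietal epithelial-like cells, at 167 and 174 CPM in tubule-like cells, at 108 and 154 CPM in mesangial-like cells, at 46.2 and 16.0 CPM in glomerular endothelial-like cells and at 14.4 and 24.2 CPM in arterial endothelial-like cells. The epithelial classes were thus above mesangial-like cells, and these above both endothelial classes, in each library. Without the cells that carried podocyte markers, Itgav stood at 144 and 157 CPM in tubule-like and 107 and 154 CPM in mesangial-like cells, and these 2 classes overlapped. Itga5, the fibronectin receptor chain, was highest in the endothelial classes, at 66.2 and 43.6 CPM in arterial and 44.7 and 34.9 CPM in glomerular endothelial-like cells, which overlapped. It stood at 18.5 and 14.5 CPM in mesangial-like cells, at 4.15 and 4.53 CPM in podocyte-like cells and at 0.683 and 1.37 CPM in tubule-like cells.

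**Figure D1:**
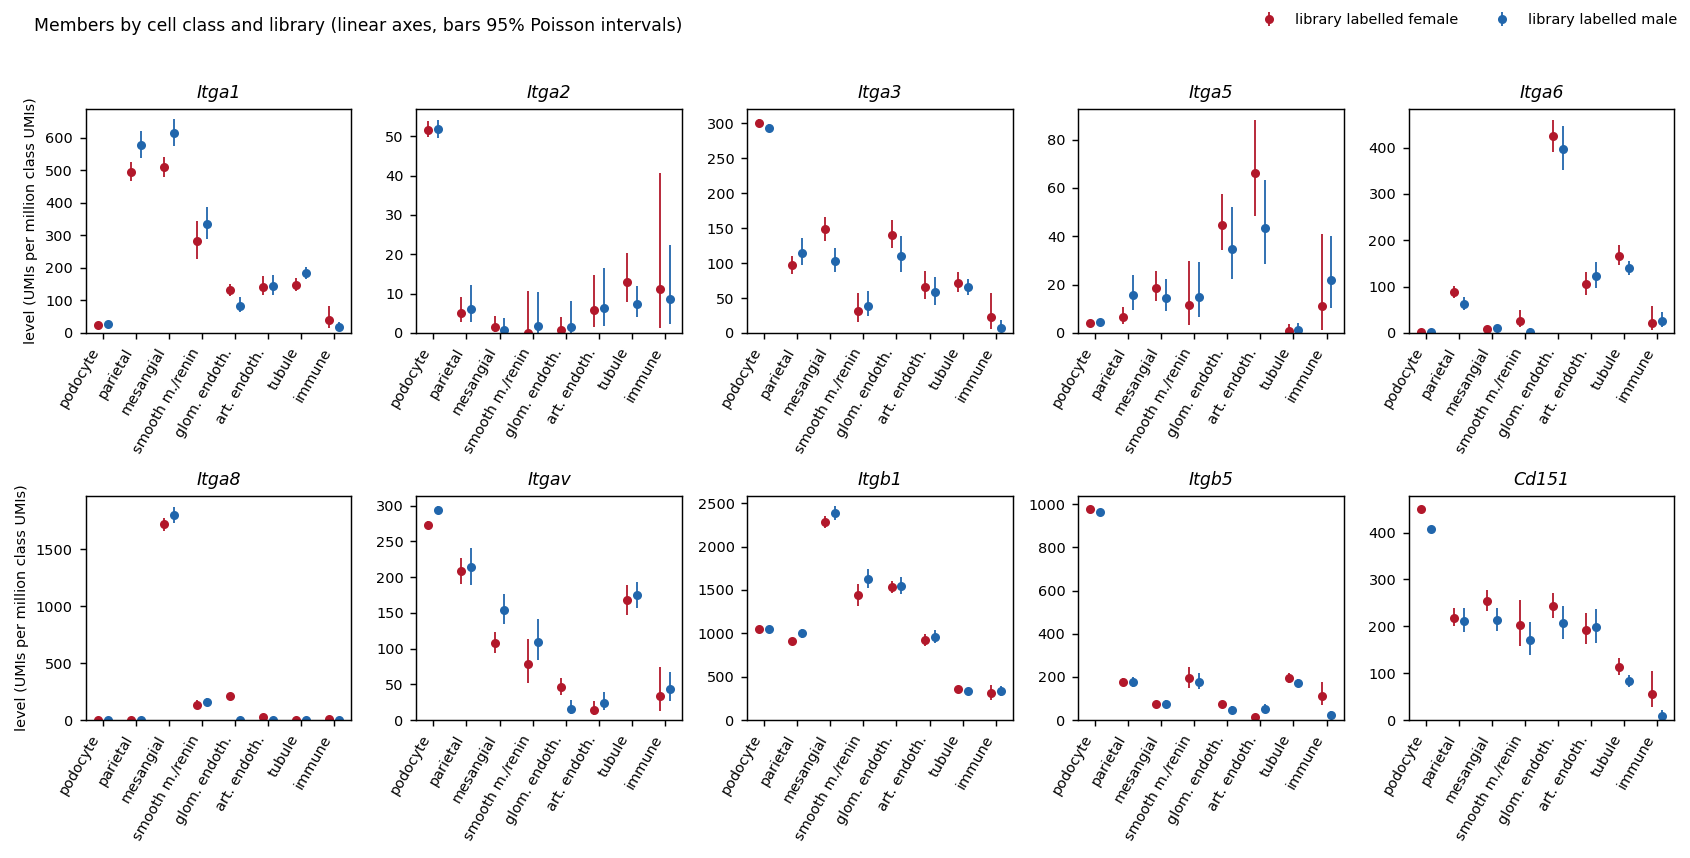
Level of each of the 10 genes (vertical axis, CPM of the class sum, linear) in 8 cell classes (horizontal axis), with the female-labelled library as the left point and the male-labelled library as the right point of each pair and bars for 95% Poisson intervals. Itgb5, Itga3, Itga2 and Cd151 are highest in podocyte-like cells, Itga8 and Itgb1 in mesangial-like cells and Itga6 in glomerular endothelial-like cells.

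The repertoire of a class was read from the share of each gene in the summed UMIs of 18 alpha or 8 beta subunit genes. In podocyte-like cells Itga3 held 45.6% and 43.3% of the alpha UMIs and Itgav 41.4% and 43.4%, while Itga2 held 7.85% and 7.69% and Itga1 3.87% and 4.22%. On the beta side Itgb1 held 48.2% and 48.1%, Itgb5 45.1% and 44.3% and Itgb8, a partner of Itgav in the activation of latent TGF-beta, 6.64% and 7.64%. Podocyte-like cells thus rested on 2 alpha and 2 beta chains that between them held most UMIs of their kind.

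Mesangial-like cells held Itga8 at 48.9% and 48.2% of the alpha UMIs, Itga4 (a chain of the VCAM-1 and fibronectin receptor) at 22.1% and 20.7% and Itga1 at 14.5% and 16.4%. Itgb1 held 96.6% and 96.7% of their beta UMIs. Parietal epithelial-like cells held Itga1 at 49.0% and 51.7% and Itgav at 20.6% and 19.1%, with Itgb1 at 73.7% and 76.2% of the beta UMIs. Glomerular endothelial-like cells held Itga6 at 33.9% and 53.1%, where the female-labelled share was 50.9% without the 5 cells above, and Itgb1 at 93.2% and 95.7%. In tubule-like cells Itgav held 28.4% and 29.3%, Itga6 28.3% and 23.4% and Itga1 25.1% and 31.0%, and no single beta chain held most of the UMIs, with Itgb1 at 46.9% and 43.9%, Itgb5 at 25.1% and 22.4%, Itgb6 at 16.4% and 18.6% and Itgb8 at 11.1% and 14.8%. The order within the tubule-like class moved with the cells that carried podocyte markers. Without them Itga6 held 35.4% and 26.6% of the alpha UMIs, Itga1 29.5% and 37.4% and Itgav 25.8% and 27.1%. On the beta side Itgb5 then held 11.6% and 11.6%, under Itgb6 at 29.0% and 28.7% and Itgb8 at 16.1% and 19.2%. Of these Itgb8 UMIs 76 of 93 and 179 of 201 came from 9 and 22 proximal tubule-like cells. Itgb8 stood there at 263 and 325 CPM, against 26.0 and 26.3 CPM in thick ascending limb-like cells and 0 UMIs in distal convoluted tubule-like cells. Summed alpha UMIs stood at 659 and 676 CPM in podocyte-like cells, below their beta sum of 2172 and 2180 CPM. In mesangial-like cells they stood at 3516 and 3747 CPM, above a beta sum of 2365 and 2471 CPM. Capture can differ between genes, so these sums compare UMIs and not protein chains.

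**Figure D2:**
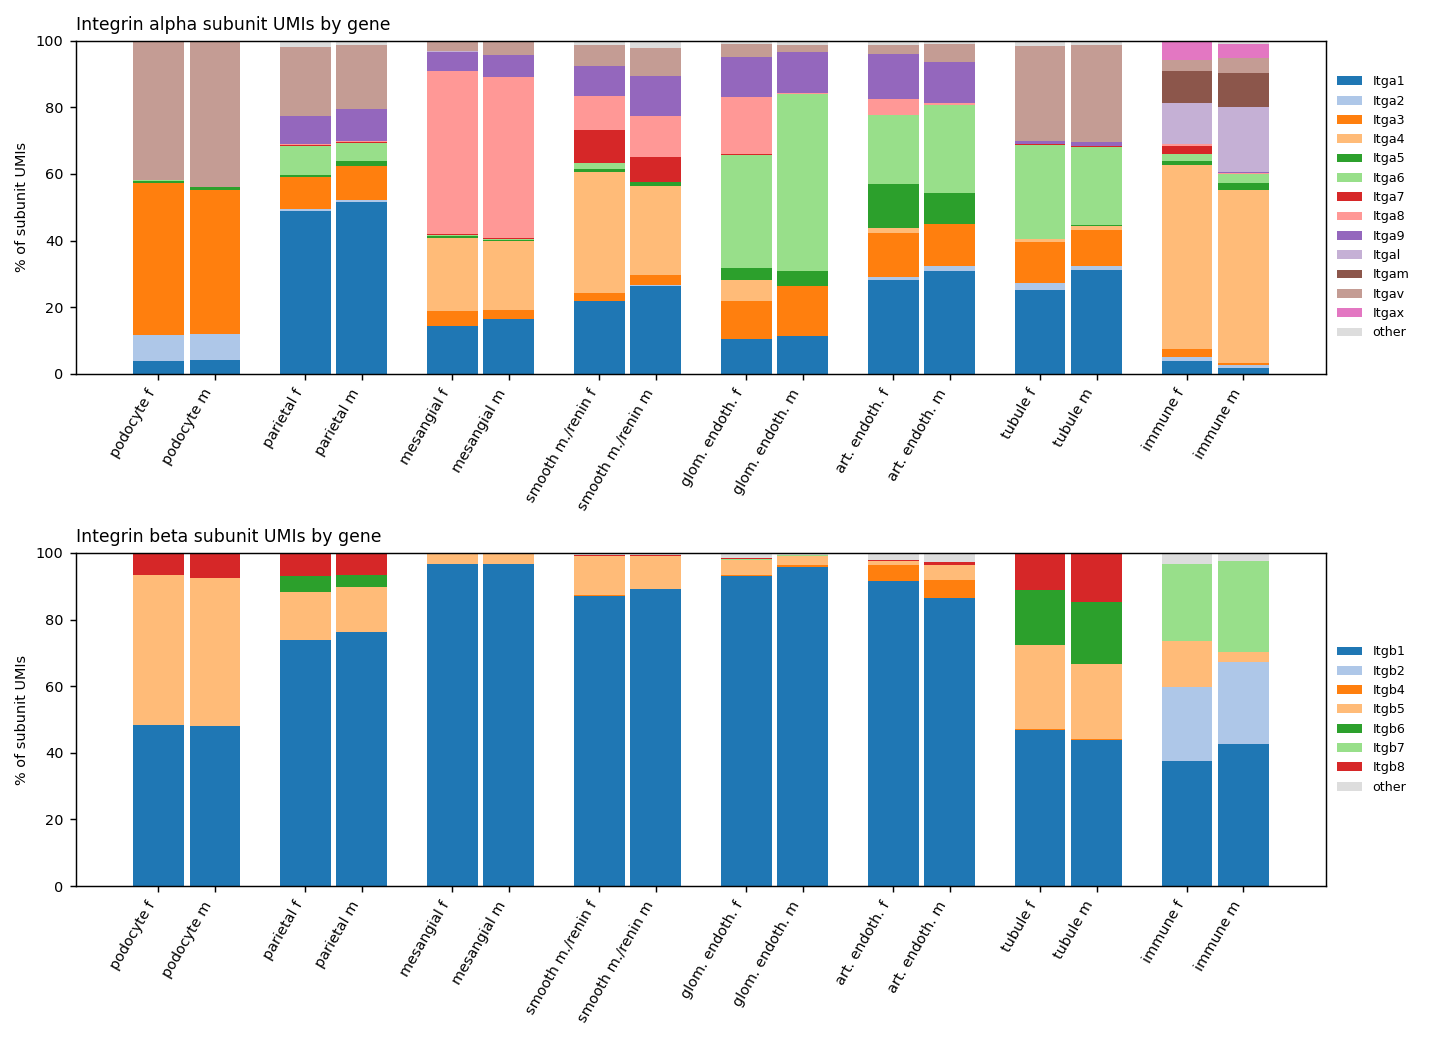
Share of each gene in the summed UMIs (vertical axis, percent) of integrin alpha subunit genes (upper panel) and beta subunit genes (lower panel) by cell class; in each pair the left bar (f) is the female-labelled library and the right bar (m) the male-labelled library, and genes under 5% in each bar are pooled as other. Itgb1 holds over 90% of beta UMIs in mesangial-like cells, and Itgb1 and Itgb5 hold near-equal parts in podocyte-like cells.

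Differences between classes were called where the ratio was past 2-fold the same way in both libraries and the gene reached 20 CPM in either class. Podocyte-like over mesangial-like cells, 3 of the 8 members above that level were higher (Itga2, Itga3 and Itgb5) and 3 were lower (Itga1, Itga8 and Itgb1), where 11.5% of all 7395 genes were higher and 18.6% lower. Itgb5 was 13-fold higher (11.1 to 15.4) in the female-labelled library and 12.7-fold higher (10.5 to 15.4) in the male-labelled library. Itga3 lay close to the limit at 2.03-fold and 2.84-fold, and its call was lost when cells were thinned or the mitochondrial limit was 50%. Itga8 was 4577-fold lower (2892 to 7733) and 5300.0-fold lower (3094 to 9967). Itga1 was 19.9-fold lower (18.3 to 21.7) and 21.5-fold lower (19.7 to 23.5), and Itgb1 was 2.18-fold and 2.28-fold lower. Itgb1 was also close to the limit, and its call was lost on thinning.

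Podocyte-like over parietal epithelial-like cells, Itga2, Itga3 and Itgb5 were higher and Itga1 and Itga6 lower among 8 members above the level limit, where 7.39% of all genes were higher and 16.7% lower. Itgb5 was 5.52-fold higher (5.01 to 6.1) and 5.49-fold higher (4.82 to 6.29), and Itga6 was 69.0-fold lower (51.6 to 93.5) and 53.3-fold lower (36.4 to 78.9). The Itga3 call, at 3.10-fold and 2.54-fold, was lost when clusters were made at a resolution of 0.5. Cd151 stood at 2.05-fold and 1.92-fold and was not called. Without the parietal epithelial-like cells that carried podocyte markers, an alternative chosen after seeing the data, Cd151 passed the limit at 2.22-fold and 2.22-fold. Itgb5 was then 8.56-fold higher (7.49 to 9.83) and 7.42-fold higher (6.27 to 8.85), and Itga2 was 32.5-fold and 18.0-fold higher, against 9.96-fold and 8.35-fold with all cells.

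Podocyte-like over glomerular endothelial-like cells, all 10 members were above the level limit in at least 1 of the classes. Itga2, Itga3, Itgav and Itgb5 were higher and Itga1, Itga5, Itga6 and Itga8 lower, where 12.7% of all genes were higher and 19.8% lower. Itga6 was 333-fold lower (256 to 441) and 344-fold lower (249.8 to 485). Itgav was 5.91-fold higher (4.62 to 7.70) and 18.3-fold higher (10.2 to 36.7). Without the 5 female-labelled cells with Pdgfrb it was 11.4-fold higher (7.73 to 17.6) in that library, and Itga1 was 2.44-fold lower, against 5.14-fold with them. The Itga8 call rested on the 5 endothelial-like cells with Pdgfrb, and 7 members were called without them. That call was also lost on thinning. The 12.7% and 19.8% of all genes are for the class with the 5 cells.

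Podocyte-like over tubule-like cells, Itga2, Itga3, Itgb1, Itgb5 and Cd151 were higher and Itga1 and Itga6 lower among 8 members above the level limit, where 12.7% of all genes were higher and 17.6% lower. In tubule-like cells 11 of 12 podocyte markers reached 50 CPM, with a summed level of 4682 and 3886 CPM, and Itgb5 stood at 195 and 173 CPM. Without the cells that carried podocyte markers, the tubule-like levels were 63.2 and 72.0 CPM for Itgb5, 26.4 and 28.0 CPM for Itga3, 62.3 and 50.6 CPM for Cd151 and 230.3 and 250.02 CPM for Itgb1, while Itga1 (165 and 216 CPM), Itga6 (198 and 154 CPM) and Itgav (144 and 157 CPM) kept levels near those of the whole class. Itgb5 was then 15.5-fold and 13.4-fold higher in podocyte-like cells, against 5.04-fold and 5.58-fold with all tubule-like cells. In the 16 distal convoluted tubule-like cells of the male-labelled library left then, Itgb5 stood at 143 CPM, against 36.3 CPM in its 22 proximal tubule-like cells. The female-labelled library had 6 and 9 such cells, at 137 and 20.8 CPM.

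Mesangial-like over glomerular endothelial-like cells, Itga1, Itga8 and Itgav were higher and Itga5 and Itga6 lower among 9 members above the level limit, where 10.7% of all genes were higher and 11.5% lower. Itga6 was 44.6-fold lower (28.3 to 74.7) and 35.9-fold lower (21.7 to 63.7). Itga3 stood at 1.06-fold and 0.932-fold and Cd151 at 1.05-fold and 1.03-fold, and the interval of each of these ratios held 1. In the female-labelled library Itgav was 2.34-fold, Itga1 3.88-fold and Itga8 7.98-fold higher, and without the 5 endothelial-like cells with Pdgfrb 4.52-fold, 8.18-fold and 1798-fold, the last against 1 UMI (interval 322 to 71034).

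**Figure D3:**
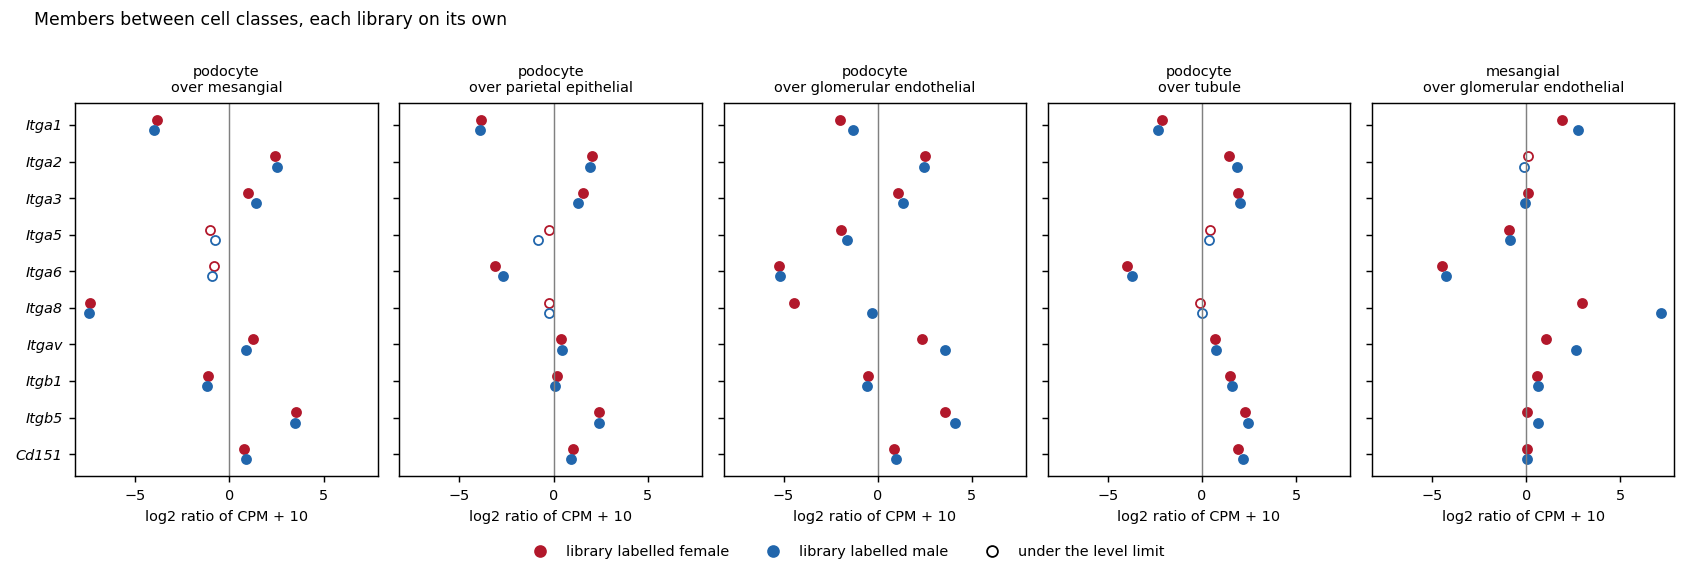
Log2 ratio of CPM plus 10 (horizontal axis) for the 10 genes (vertical axis) in 5 contrasts between cell classes, with the female-labelled library drawn above the male-labelled library and open points where the gene was under 20 CPM in both classes. Itgb5 lies to the right of 0 and Itga1 to the left in each of the 4 podocyte contrasts, and Itga8 in the third panel is far apart between the libraries.

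Between the libraries, members were called past 1.5-fold, female-labelled over male-labelled, at 20 CPM or more in either library. In podocyte-like cells none of the 7 members above that level was called, where 1.6% of all 6181 genes were. Their ratios ran from 0.894 for Itga1 to 1.10 for Cd151. None of 7 was called in parietal epithelial-like cells either (8.28% of all genes called), in mesangial-like cells (9.25%) or in tubule-like cells (12.3%). The mesangial ratios farthest from 1 were those of Itga3 at 1.44 (1.18 to 1.76) and Itgav at 0.701 (0.579 to 0.849). In parietal epithelial-like cells Itga6 was at 87.9 against 61.4 CPM, a ratio of 1.43 (1.10 to 1.88), which was past 1.5-fold without the cells that carried podocyte markers.

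In glomerular endothelial-like cells 4 of 9 members were higher in the female-labelled library (Itga1, Itga8, Itgav and Itgb5), where 19.1% of all genes were called either way. The 5 cells with Pdgfrb moved with this result. The 8 mesangial markers summed to 1394 CPM in this class in the female-labelled library, against 68.4 CPM in the male-labelled library, and to 50.7 CPM in the female-labelled library without the 5 cells, with Pdgfra and Des then at 0 UMIs in both libraries. With the 5 cells left out, a choice made after seeing the data, Itga8 stood at 0.957 CPM in the female-labelled library against 2.91 CPM, Itga1 at 62.2 against 84.4 CPM, Itgav at 23.9 against 16.0 CPM and Itgb5 at 58.4 against 46.6 CPM, and 0 members were past 1.5-fold. Itga6 stood at 465 against 397 CPM then. The 19.1% of all genes is for the class with the 5 cells, and no such share is given here without them. In arterial endothelial-like cells Itga5 and Itga8 were higher and Itgav and Itgb5 lower of 9 members, where 21.3% of all genes were called. These rest on few UMIs, with 10 against 33 for Itgb5, 10 against 15 for Itgav, 17 against 1 for Itga8 and 46 against 27 for Itga5. The 17 Itga8 UMIs came from 2 of 66 cells. The intervals of the ratios held 1 for Itgav and Itga5. Podocyte markers moved with the Itgb5 difference, with over 5000 CPM of them in 1 of 66 cells of the female-labelled and 3 of 66 cells of the male-labelled library. Without those cells Itgb5 stood at 13.1 against 28.9 CPM, from 9 against 16 UMIs, and 3 members (Itga5, Itga8 and Itgb5) were called. The 21.3% of all genes is for the class with all its cells.

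**Figure D4:**
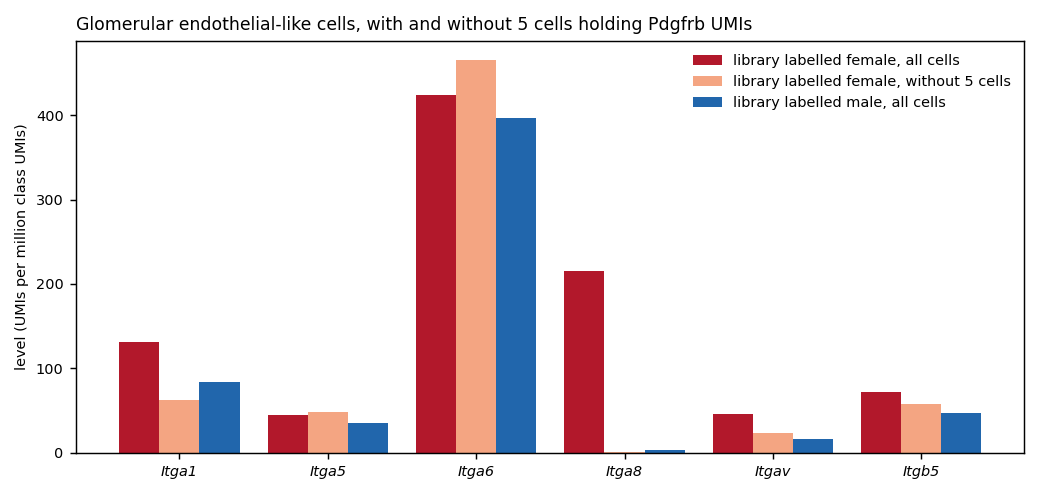
Level (vertical axis, CPM of the class sum) of 6 genes in the glomerular endothelial-like class, for all 112 cells of the female-labelled library, for that library without 5 cells that held 2 or more Pdgfrb UMIs, and for the 89 cells of the male-labelled library. Itga8 stands at 216 CPM with the 5 cells and at 0.957 CPM without them.

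Across the 8 podocyte-like clusters Itga3, Itgb1 and Cd151 varied little. Itga3 ran from 252 to 315 CPM in the female-labelled library and from 274 to 311 CPM in the male-labelled library, Itgb1 from 979 to 1188 CPM and from 917 to 1173 CPM, and Cd151 from 378 to 501 CPM and from 348 to 432 CPM. One cluster of 118 and 126 cells, led by Cst12, Dkk3 and Igfbp6, stood apart. Itgb5 was lowest there at 660.1 and 699 CPM, against 992 and 976 CPM in the other podocyte-like clusters, 1.5-fold lower (1.42 to 1.59) and 1.40-fold lower (1.31 to 1.49). Itga1 was highest there at 60.3 and 53.6 CPM, against 24.2 and 27.5 CPM, 2.50-fold higher (2.03 to 3.04) and 1.95-fold higher (1.53 to 2.45). Itga2 stood at 35.2 and 34.9 CPM, against 52.4 and 52.6 CPM. Each of these 3 values lay between the pooled level of the other podocyte-like clusters and that of parietal epithelial-like cells. For Itga2 in the male-labelled library another single podocyte-like cluster was lower, at 30.7 CPM. Itga3 was 1.20-fold lower (1.09 to 1.32) and 1.07-fold lower (0.972 to 1.19), and the ratio of Cd151 held 1 in both intervals. Itga5 was low and did not lie between the pooled and parietal levels. It stood at 3.35 and 0.670 CPM, against 4.19 and 4.69 CPM pooled and 6.50 and 15.5 CPM in parietal epithelial-like cells. Itgav, at 276 and 280 CPM against 273 and 294 CPM pooled, lay between them in the male-labelled library only.

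All 12 podocyte markers were at 50 CPM or more in the Cst12 cluster, summing to 18280 and 20752 CPM against 28132 and 29292 CPM in the other podocyte-like clusters. Of the 8 parietal markers 4 were at 50 CPM or more against 1, summing to 507 and 339 CPM against 119 and 114 CPM, and Krt8, Krt18 and Prom1 were at 0 UMIs. The mesangial list summed to 194 and 184 CPM against 33.2 and 32.5 CPM, with Pdgfrb at 79.3 and 107 CPM in the cluster, against 6.54 to 30.5 and 8.14 to 40.4 CPM over the other clusters, and Pdgfra, Gata3 and Itga8 at 0 UMIs. Pax8 stood at 63.7 and 63.7 CPM in the cluster against 8.76 and 8.40 CPM and Cldn1 at 77.6 and 65.0 CPM against 13.9 and 13.8 CPM in the other podocyte-like clusters. Itgb6 and Itga9, which parietal epithelial-like cells carry at 58.0 and 47.4 CPM and at 86.2 and 108 CPM, stood at 0 and 0.670 CPM and at 2.79 and 0 CPM in the cluster. The part of these marker levels in the integrin values was not tested. Clusters come from the same cells, and the intervals cover counting error only.

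**Figure D5:**
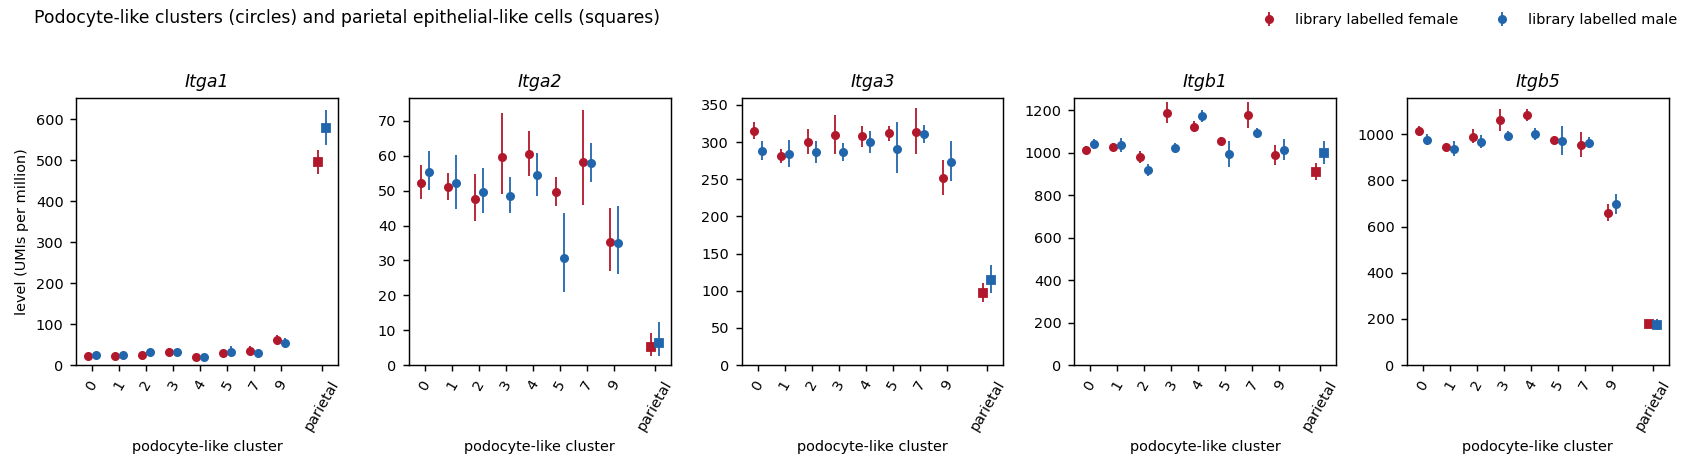
Level (vertical axis, CPM, linear) of 5 genes in the 8 podocyte-like clusters (circles, numbered on the horizontal axis) and in parietal epithelial-like cells (squares), with the female-labelled library left of the male-labelled library and bars for 95% Poisson intervals. Cluster 9, led by Cst12, is lowest for Itgb5 (660.1 and 699 CPM) and highest among the circles for Itga1 (60.3 and 53.6 CPM).

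An unnamed cluster of 840 cells that was led by haemoglobin genes but held all 12 podocyte markers had a podocyte-like profile of the members. Itgb5 stood there at 921 and 939.8 CPM, Itga3 at 271 and 240.0 CPM, Itgav at 250.4 and 256 CPM and Itga6 at 1.24 and 1.55 CPM. An unnamed cluster of 45 cells with both mesangial and podocyte markers held Itga8 at 518 and 324 CPM together with Itgb5 at 629.5 and 669.5 CPM. Another of 35 cells with endothelial and podocyte markers held Itga6 at 72.9 and 72.1 CPM with Itgb5 at 755 and 634 CPM. None of these cells entered the class levels above.

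The other integrin genes fill in each repertoire. The list of 18 holds 17 subunit genes and Itgb1bp1, which encodes a protein that binds the Itgb1 tail. Podocyte-like over mesangial-like cells, 4 of the 18 were above the level limit, of which Itgb8 was higher and Itga4 and Itga9 lower. Among all genes 11.5% were higher and 18.6% lower there. Itgb1bp1 was past the limit but not called, at 23.8 and 22.7 CPM in podocyte-like against 38.1 and 47.0 CPM in mesangial-like cells. Itga4 stood at 0.251 and 0.341 CPM in podocyte-like cells against 777 and 774 CPM in mesangial-like cells. It also stood at 553 and 507 CPM in immune-like cells and at 464 and 338 CPM in the smooth muscle or renin-like class. Itgb8 stood at 144 and 167 CPM in podocyte-like cells against 2.0 CPM and 0 UMIs in mesangial-like cells. In parietal epithelial-like cells Itgb8 stood at 85.3 and 87.9 CPM and in tubule-like cells at 86.0 and 115 CPM. Podocyte-like over parietal epithelial-like cells, 4 of the 18 were above the level limit, of which 0 were higher and Itga9 and Itgb6 lower. Among all genes 7.39% were higher and 16.7% lower there. Over tubule-like cells 3 were above the limit, of which 0 were higher and Itgb6 lower, beside 12.7% and 17.6% of all genes. Itga9, whose protein pairs with Itgb1 and binds tenascin C, stood at 203 and 248 CPM in mesangial-like cells. It stood at 116 and 151 CPM in the smooth muscle or renin-like class and at 149.5 and 90.2 CPM in glomerular endothelial-like cells. Parietal epithelial-like cells held it at 86.2 and 108 CPM. Itgb6, an epithelial partner of Itgav, stood at 127 and 144 CPM in tubule-like and 58.0 and 47.4 CPM in parietal epithelial-like cells and was at 0 UMIs in the mesangial-like and both endothelial classes. Itga7, a muscle laminin receptor chain, stood at 125 and 93.0 CPM in the smooth muscle or renin-like class. Itgb4, the laminin receptor partner of Itga6, stood at 46.1 and 58.1 CPM in arterial endothelial-like cells, and Itgb3, another partner of Itgav, at 23.5 and 10.2 CPM in glomerular and 20.2 and 30.7 CPM in arterial endothelial-like cells. Itgal, Itgam, Itgax, Itgb2 and Itgb7, chains of leukocyte integrins, were at 20 CPM or more in no class but the immune-like one.

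Matrix genes that encode ligands of these receptors were split between the same classes. Podocyte-like over mesangial-like cells, 17 of 29 were above the level limit, 6 were higher and 9 lower, where 11.5% of all genes were higher and 18.6% lower, with a median log2 ratio of -1.65 beside -0.05 over all genes. Col4a3, Col4a4 and Col4a5, which form the mature collagen IV network of the glomerular basement membrane, were higher, with Col4a3 at 2414 and 2416 CPM in podocyte-like against 40.6 and 29.7 CPM in mesangial-like cells. Col4a1 stood at 10.3 and 5.32 CPM against 4196 and 4275 CPM. Npnt, which encodes nephronectin, the ligand of the Itga8 receptor, stood at 1881 and 1753 CPM in podocyte-like cells against 149 and 139 CPM in mesangial-like cells, the reverse of the Itga8 levels. Spp1, which encodes osteopontin, an RGD ligand, stood at 1837 and 2262 CPM in tubule-like and 1269.8 and 1283 CPM in parietal epithelial-like cells, and at 5.51 and 4.85 CPM in podocyte-like cells. Podocyte-like over parietal epithelial-like cells, 4 of 22 ligand genes were higher and 13 lower, where 7.39% and 16.7% of all genes were. Over glomerular endothelial-like cells 5 of 18 were higher and 10 lower, where 12.7% and 19.8% of all genes were, and over tubule-like cells 8 of 13 were higher and 4 lower, where 12.7% and 17.6% were.

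Of 24 adaptor and kinase genes that link integrins to actin, 17 were above the level limit in podocyte-like over mesangial-like cells. Parva, Lims2 and Pxn were higher and Tln1, Vcl, Ptk2, Tns1, Tns3 and Zyx lower. Parva, which encodes a partner of integrin-linked kinase, stood at 534 and 590.5 CPM in podocyte-like against 199 and 213 CPM in mesangial-like cells. Vcl, which encodes vinculin, stood at 90.8 and 72.4 CPM against 914 and 1200.3 CPM, and Tns1, which encodes tensin, at 9.44 and 10.8 CPM against 599 and 578 CPM. Among all genes 11.5% were higher and 18.6% lower in that comparison. Podocyte-like over tubule-like cells, 10 of 19 adaptor genes were higher and 3 lower, where 12.7% and 17.6% of all genes were. Podocyte-like over parietal epithelial-like cells, 2 of 18 were higher and 4 lower, beside the 7.39% and 16.7% of all genes. Over glomerular endothelial-like cells 2 of 18 were higher and 5 lower, beside the 12.7% and 19.8% of all genes.

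Among 10 other matrix receptor genes, Dag1, Bcam, Ddr1, Sdc2 and Sdc4 were higher and Ddr2, Sdc1 and Sdc3 lower of the 9 above the level limit, podocyte-like over mesangial-like cells. Sdc4, which encodes syndecan 4, a co-receptor of integrins, stood at 3739.7 and 3389 CPM in podocyte-like against 155 and 184 CPM in mesangial-like cells. Of 15 other tetraspanin genes 10 were above the limit, with 5 higher and 4 lower. Both lists stand beside 11.5% of all genes higher and 18.6% lower. Cd9, which encodes a tetraspanin that binds integrins as Cd151 does, stood at 0.856 and 0.812 CPM in podocyte-like cells against 355 and 436 CPM in glomerular endothelial-like cells.

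The genes whose levels ran most like each member's were taken over 12 points (6 classes in 2 libraries) by Pearson's r of log2(CPM + 10) among 5757 candidate genes. The points share libraries and differ in depth, and the values are a description with no test. The female-labelled glomerular endothelial-like point held the 5 cells with Pdgfrb. Itga8 stood there at 216 CPM, and at 0.957 CPM without them. Closest to Itga8 were Gdf10 (r = 0.998), Cd248 (0.997) and Sfrp2 (0.996), and closest to Itgb1 were Rsu1 (0.985), Cdc42 (0.975) and Tpm4 (0.971). Itgb5 had Pard3b (0.982), Mrpl48 (0.974) and Sirpa (0.972), Itga2 had Mgat5 (0.988) and Colec12 (0.979), and Itga3 had Tab2 (0.968), Nab1 (0.941) and Krcc1 (0.930). Itga6 had Cd24a (0.972), Smpdl3a (0.966) and Ddit4l (0.945), Itga5 had Jcad (0.968), Vdac3 (0.963) and Cldn15 (0.962), and Itgav had Arrdc3 (0.972), Tspan3 (0.97) and Bmpr1a (0.967). Cd151 had Arpc2 (0.987), Dpysl2 (0.96) and Bcl10 (0.956), and Itga1 had the lowest leading value, with Anxa6 (0.947), Lpp (0.939) and Scpep1 (0.936).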

How the data were processed

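Kidney glomerular cells of 2 mice gave 1 10x 3' library each. Cell Ranger 6.1.2, STAR 2.7.5a and the build mm10 are named in the submitters' processing notes, without their roles. The sources used here name no annotation, counting strand or cell filter. The authors deposited raw UMI counts, whole numbers per gene and barcode that were not normalized, per the file headers. Groups follow the sample titles, although the file names carry the opposite sex.

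Left out were 283 female-labelled and 504 male-labelled barcodes with over 20% mitochondrial UMIs, and 112 and 145 with fewer than 500 genes, some of them for both reasons. Scrublet (scanpy 1.11.5), run with an expected doublet share of 4%, called 2 and 1 cells and so has not worked here, and no cell was removed as a doublet. Cells were scaled to 10000 UMIs, projected on 30 principal components from 2000 variable genes (32 integrin genes not among them), and clustered by Leiden (leidenalg 0.10.2, resolution 1.0) on a shared-neighbour graph over 20 neighbours, which gave 21 clusters, 3 of them unnamed. A marker counted for a cluster in over 20% of its cells, at 50 CPM and 2-fold above the lower quartile of clusters, and a name needed 3 such markers. How markers were scored was settled with the clusters in view, and differences from the study may come from it.

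Counts were summed per class and library as CPM. Log2 ratios used a prior of 10 CPM, which shrinks those of low genes, and folds were computed with no prior. Sums have exact Poisson, ratios conditional binomial and shares Clopper-Pearson intervals at 95%, and a count of 0 allows up to 3 counts. Calls needed 20 CPM and 2-fold in both libraries between classes, or 1.5-fold between libraries. No significance test was run, since each group had 1 library and the classes were made from the same cells. The code that makes the calls was checked on simulated counts with known folds. In all, 13 alternatives were planned and 2 were added after seeing the data. The members and gene lists were chosen with earlier results of these data known. All 10 members are named, as are other subunits at 20 CPM in any class, up to 3 genes per list, contrast and direction with the largest log2 ratio at 50 CPM or more, and the 3 most alike genes per member. Some genes that these rules name, and a planned gauge of podocyte RNA, are not reported here. Tln1 is named to complete a count, and the markers Pdgfrb, Pax8 and Cldn1 beside the results they move with, after their values were seen.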

Additional observations from a re-analysis of the deposited data

How the results depend on the processing

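With both directions counted together, the counts of members past 2-fold between classes stayed within 1.5 times of those reported under each of the 15 alternatives that gave a value. Counts by direction could move more. With no limit on level, Itga5 and Itga6 were also past 2-fold lower in podocyte-like than in mesangial-like cells. The counts past 1.5-fold between libraries were less stable. In glomerular endothelial-like cells the 4 members became 2 with a mitochondrial limit of 10%, at a resolution of 0.5, with only cells whose own class scored highest and with cells typed one by one, 1 when the cells with the top 5% of Scrublet scores were left out, and 0 without the cells with 2 or more Pdgfrb UMIs. In arterial endothelial-like cells the 4 became 2 with cells typed one by one or a limit of 50 CPM. The count of 0 became 1 in parietal epithelial-like cells at a resolution of 0.5, with the mean of each cell's CPM, with no limit on level and without mixed cells with podocyte markers. It became 1 in mesangial-like cells after thinning to 3000 UMIs, with the mean of each cell's CPM and with no limit on level, and in tubule-like cells 2, 1 and 3 under these 3 settings. The cause was not tested, and the shares of all genes given above are not for these alternatives.

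The log2 ratio of Itga1 between libraries in glomerular endothelial-like cells, 0.58, turned to -0.42 without the cells with the highest Scrublet scores, -0.0714 after thinning, -0.11 with the mean of each cell's CPM and -0.39 without the cells with Pdgfrb. That of Itgb5, 0.55, turned to -0.0664 with cells typed one by one. The mitochondrial limit of 10% left no tubule-like class, and its contrasts were not run. No paired analysis was possible because each group had 1 library. The summed UMIs of a class limit its values, and they were lowest in immune-like cells (177243 and 457950) and smooth muscle or renin-like cells (344726 and 537871).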
